A study of Rattus norvegicus with 6 samples.

Results

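Exon-antisense long non-coding RNAs (lncRNAs) are transcripts that run over an exon of a known gene on the opposite strand, and the deposited table marks them with class code x. The 176 described here are all transcripts of that class apart from 13 whose host gene is Tcf21, Grhl2, Emx2, Dlx6, Slc27a5, Afp, Myof, Egflam, a gene beginning with Akr1c or a microRNA. They come from a table of 2455 lncRNA transcripts with values, and their class and host gene are as the authors annotated them, so no expression value chose them. The members lie at 127 loci and are assigned to 125 host genes, of which 99 have a symbol and 26 an Ensembl identifier alone. RNA was sequenced from liver, left ventricle of the heart, outer medulla of the kidney, cortex, adrenal gland and hypothalamus of male rats of the inbred Brown Norway (BN) strain at 6 weeks of age. All samples share strain, sex and age, no treatment is labelled, and the cortex is labelled without its organ. There is 1 labelled sample per tissue, with 2 columns in the table, and paired values below are those of column 1 and then column 2. Nothing states that the columns are different rats. P-values therefore measure only how far the 2 columns lie apart, which may be technical spread.

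Antisense lncRNAs are transcribed from the strand opposite to a host gene and can share sequence complementarity, a promoter region or only territory with it. Some are known to silence or activate their host, to compete with it for transcription, or to act elsewhere, and many have no known role. Their levels often differ more between tissues than those of protein-coding genes. The library kit keeps strand, but the sources used here do not give the strand setting of the counting, so a value of an antisense transcript may include reads of its host gene. A level from bulk tissue also cannot tell fewer cells that make a transcript from less of it per cell.

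Hosts were looked up by symbol in a RefSeq gene table of the GRCr8 assembly. Of the 125 hosts, 89 were matched, 88 of these as protein-coding genes and 87 on the chromosome that the deposited table gives on the rn5 build. The exceptions were Timm8a1, placed here on chromosome 7, and Spin1, placed here on chromosome 16. For both, the host name therefore goes against the reference table, and the name is used below only as the deposited table gives it. Promoters of 63 hosts were found by exact symbol in RefSeq. The following are shown because they belong to the host with the largest tissue difference among those with a promoter, for each of 5 tissues, and to Masp1, whose antisense transcripts differed in tissue. Each is 300 bases on the strand of the host, 5′ to 3′, from 250 bases before the annotated start of the host to 50 after it, with GRCr8 positions. They are promoters of the hosts and not of the antisense transcripts, whose own starts on this build are not known here. Capitals mark motifs found on either strand, among them the TATA box, searched as TATAAA, the CCAAT box, the GC box, searched as GGGCGG, and the site of GATA factors, searched as AGATAA.
Ccl6, chr10:68883317-68883616, minus strand: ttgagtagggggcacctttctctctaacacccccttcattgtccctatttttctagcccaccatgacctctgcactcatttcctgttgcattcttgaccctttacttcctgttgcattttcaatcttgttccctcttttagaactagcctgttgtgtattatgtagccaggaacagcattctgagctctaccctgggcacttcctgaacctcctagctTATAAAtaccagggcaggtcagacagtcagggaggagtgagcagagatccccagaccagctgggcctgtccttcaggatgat
Nxpe5, chr12:22233275-22233574, minus strand: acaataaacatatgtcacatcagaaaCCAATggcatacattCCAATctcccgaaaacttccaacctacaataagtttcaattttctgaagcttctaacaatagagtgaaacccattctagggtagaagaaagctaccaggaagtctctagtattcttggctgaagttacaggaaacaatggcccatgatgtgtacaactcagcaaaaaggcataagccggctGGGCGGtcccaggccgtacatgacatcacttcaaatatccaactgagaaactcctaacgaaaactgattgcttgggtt
Alx1, chr7:40063729-40064028, minus strand: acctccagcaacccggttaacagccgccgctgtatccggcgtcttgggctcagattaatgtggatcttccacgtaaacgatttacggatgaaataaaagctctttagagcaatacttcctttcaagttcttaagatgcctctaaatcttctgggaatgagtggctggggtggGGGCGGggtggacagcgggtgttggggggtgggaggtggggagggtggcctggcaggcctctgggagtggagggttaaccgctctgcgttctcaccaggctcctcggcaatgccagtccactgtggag
Vstm5, chr8:20361358-20361657, plus strand: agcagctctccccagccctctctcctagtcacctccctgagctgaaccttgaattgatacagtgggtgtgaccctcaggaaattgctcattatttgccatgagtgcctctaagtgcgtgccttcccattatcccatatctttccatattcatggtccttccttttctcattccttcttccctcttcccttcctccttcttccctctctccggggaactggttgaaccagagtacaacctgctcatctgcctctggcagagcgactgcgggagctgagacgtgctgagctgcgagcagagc
Zeb2, chr3:49754274-49754573, minus strand: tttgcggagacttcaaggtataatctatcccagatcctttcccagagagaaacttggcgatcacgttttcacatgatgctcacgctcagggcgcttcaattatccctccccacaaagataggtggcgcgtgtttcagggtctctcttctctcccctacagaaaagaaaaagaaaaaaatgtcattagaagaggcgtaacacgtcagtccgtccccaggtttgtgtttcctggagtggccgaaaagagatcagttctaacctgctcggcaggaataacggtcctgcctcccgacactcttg
Masp1, chr11:90839472-90839771, plus strand: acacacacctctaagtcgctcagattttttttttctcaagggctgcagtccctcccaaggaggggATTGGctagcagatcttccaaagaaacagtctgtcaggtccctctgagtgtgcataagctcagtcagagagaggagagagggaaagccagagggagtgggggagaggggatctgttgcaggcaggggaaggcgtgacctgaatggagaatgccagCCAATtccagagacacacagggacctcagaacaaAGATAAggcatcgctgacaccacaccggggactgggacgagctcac

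In these windows the promoter of Ccl6 held a TATA box, that of Nxpe5 held 2 CCAAT boxes and a GC box, and that of Alx1 held a GC box. The Masp1 window held 2 CCAAT boxes and a GATA site. None of the 6 motifs searched was found in the windows of Vstm5 and Zeb2. Over the 63 host promoters, the GC box was found in 54.0%, against 33.1% of all 33469 promoters and 41.8% of those of protein-coding genes. The TATA box was found in 6.35% of host promoters, against 14.2% of all promoters and 13.0% of protein-coding ones. For the CCAAT box the shares were 34.9% of host promoters and 37.5% of all, and for the GATA site they were 4.76% and 11.6%. The remaining motifs were a site of the liver factor HNF4 (CAAAGTCCA), in 0 host promoters and 0.391% of all, and a site of the steroidogenic factor NR5A1 (CAAGGTCA), in 1.59% of host promoters and 1.52% of all. Host promoters had a median of 13 CpG dinucleotides and a GC content of 58%, against 11 and 55% in 21851 protein-coding promoters. These shares describe the windows and were not tested.

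Levels are given as FPKM, fragments scaled for transcript length and library size, and detection in a tissue required that its columns averaged at least 0.5. By this measure 140 of 176 members (79.5%) were detected somewhere, against 1812 of 2455 transcripts in the whole table (73.8%). Exactly 1 tissue held 74 members (42.0%), against 899 transcripts of the table (36.6%), and all 6 tissues held 4 members (2.27%), against 142 transcripts (5.78%). Cortex and outer medulla held the most members, 63 (35.8%, against 32.5% of the table) and 61 (34.7%, against 31.1%), and led over the whole table too. Left ventricle held 44 (25%, against 24.9%), liver 40 (22.7%, against 27.9%), adrenal gland 40 (22.7%, against 26.6%) and hypothalamus 17 (9.66%, against 20.1%). Members had a median length of 1926 bases, against 1758 over the table, and a median highest FPKM of 1.105, against 1.047. The highest level of any member was 46.5 FPKM, in adrenal gland.

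The 36 members below detection everywhere reached mean levels between 0.0207 and 0.499 FPKM. They included members at Ctcf, the insulator protein, at Sp2, a GC-box binding factor, and at Me3, a mitochondrial malic enzyme, named here after their values were seen. Sp2 had 4 members, and another of them, TCONS_00016524, was detected, at 1.16 and 0.78 FPKM in adrenal gland. Depth as implied by steps in the low values was lowest in liver column 2, at 3940000 fragments, and highest in hypothalamus column 2, at 32020000. At a length of 1007 bases, that of the member at Ccl6, a listed 0 would therefore allow an FPKM of up to 0.876 in liver column 2 and 0.108 in hypothalamus column 2, at a limit of 3 fragments and for counting error only. Liver columns also stood further apart. Among members at an FPKM of 1 or more in a tissue, the columns differed by 4-fold or more for 9 of 33 in liver, 1 of 25 in left ventricle, 2 of 24 in adrenal gland and 0 in outer medulla, cortex and hypothalamus.

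Tissue labels could be checked little. Of 50 marker genes of these tissues, 4 had a transcript in the table, each a lncRNA that overlaps the marker and not its messenger RNA. The transcript overlapping Slc12a1, a salt transporter of the kidney, was at 36.5 and 36.6 FPKM in outer medulla and 12.2 and 14.7 in cortex. Those at Cyp11b3, a steroid enzyme of the adrenal gland, and at Afp, a liver protein, were highest in adrenal gland and liver. That at Fga, a liver clotting protein, was listed at 0 in both liver columns. No hypothalamus marker had a transcript, and the hypothalamus columns were matched to that label by elimination.

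Tissue restriction was tested with limma on log2(FPKM + 0.1) over all 12 columns, and a transcript was called restricted to its highest tissue where all 5 comparisons with another tissue passed, at an adjusted p below 0.05. Of the 176 members, 95 reached a mean FPKM of 1 in at least 1 tissue and could be tested, and 46 of these were restricted (48.4%), against 45.7% of the 1269 transcripts tested in the table. The share among members is close to the background. With 0.01 added in place of 0.1, 19 of the 95 members and 308 of the 1269 transcripts were restricted. At an unadjusted p below 0.05 the counts were 53 members and 658 transcripts. Both columns of the highest tissue lay above all other columns in 74 of the 95. The highest tissue was picked from these same values, and the share over all tested transcripts was not computed. This count therefore does not set the members apart. The median tissue specificity index tau, which runs from 0 for equal levels to 1 for 1 tissue only, was 0.843 in tested members and 0.825 over all tested transcripts. Restricted transcripts came from 41 hosts, of 81 hosts with a tested member.

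By tissue, 13 members were restricted to left ventricle (background 8.04%), 11 to liver (13.3%), 10 to adrenal gland (9.3%), 5 to cortex (6.46%), 4 to outer medulla (2.84%) and 3 to hypothalamus (5.75%). As shares of the 95 tested members these were 13.7% in left ventricle, 11.6% in liver, 10.5% in adrenal gland, 5.26% in cortex, 4.21% in outer medulla and 3.16% in hypothalamus. The differences from the background were not tested. The hypothalamus count of 3 was 6 after columns were rescaled to the same median or with no minimum level, and with 0.01 added outer medulla had 0 and cortex 1. Over the 46 restricted members the median ratio to the next tissue, on the FPKM + 0.1 scale, was 7.28, against 7.9 for all restricted transcripts. Ratios on this scale understate differences of low transcripts and depend on the added 0.1 where the next tissue is near 0.

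**Figure D1:**
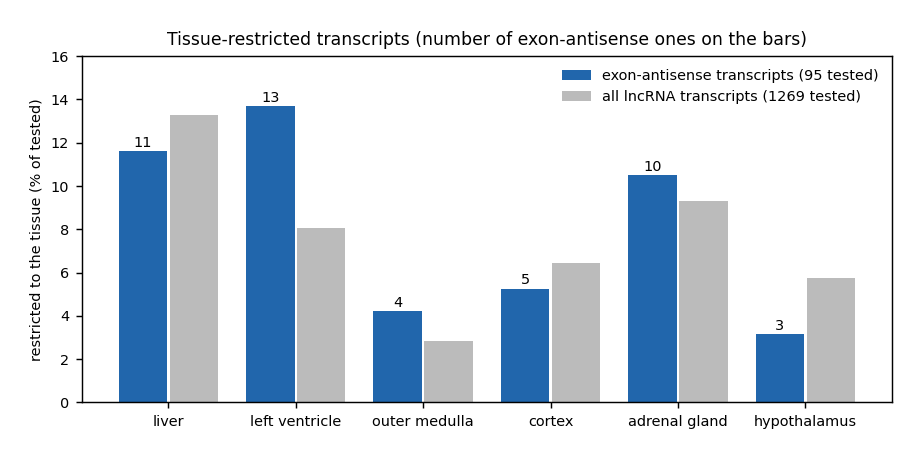
Share of tested transcripts restricted to each tissue, in percent, for exon-antisense members (blue, 95 tested) and for all lncRNA transcripts of the table (grey, 1269 tested), with the number of members above each blue bar. Left ventricle holds 13 members, 13.7% of those tested against 8.04% of the table, and hypothalamus holds 3, 3.16% against 5.75%.

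In liver, the 11 restricted members lay antisense to genes of several kinds, among them a growth factor receptor, a chemokine, a fatty acid enzyme and a complement protease. The transcript antisense to Ccl6, a rodent chemokine that attracts macrophages, was at 8.27 and 7.82 FPKM in liver and at 0.318 or less in the other 10 columns (chr10:70424361-70456053, rn5). The one antisense to Pdgfrb, the platelet-derived growth factor receptor known in pericytes and hepatic stellate cells, was at 6.40 and 3.02 FPKM in liver. Its highest value elsewhere was 0.17, in cortex column 1, and 8 of the other columns were at 0. In both, the liver columns lay apart from all other columns, with a log2 difference to the next tissue of 4.77 ± 0.48 for Ccl6 and 4.78 ± 0.59 for Pdgfrb (SE; limma adjusted p = 9.6e-05 and 0.00027).

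Acad11 encodes an acyl-CoA dehydrogenase that acts in fatty acid breakdown. Its antisense transcript was at 3.03 and 1.76 FPKM in liver, listed at 0 in 9 of the other columns and at 0.00794 in hypothalamus column 2 (limma adjusted p = 4.7e-06). At this transcript's length of 4138 bases, a listed 0 allows at most 0.0738 FPKM in any column outside liver. The transcript antisense to Wt1, a transcription factor of the developing kidney and gonad, was at 2.69 and 0.496 FPKM in liver and at 0 in all other columns, outer medulla included (limma adjusted p = 0.001). The liver columns lay 5.43-fold apart, while the other columns, all at 0, added no spread to the pooled estimate. At its length of 659 bases, a listed 0 allows 0.557 and 0.568 FPKM in left ventricle, above the value of liver column 2. The same limit of 3 fragments is 1.46 FPKM in liver column 2 itself. Wt1 was the only restricted member among 2 hosts of the list of developmental transcription factors, and Acad11 the only one among 2 hosts of the list of metabolic enzymes.

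The member at Tubgcp6, a component of the gamma-tubulin ring complex that nucleates microtubules, was at 6.87 and 43.8 FPKM in liver, against 2.51 and 2.98 in cortex and 2.02 and 2.23 in adrenal gland. The liver columns differed from each other by more than column 1 differed from cortex. Without liver column 2 the log2 difference to the next tissue was 1.30 in place of 2.63, and the call was lost (limma adjusted p = 0.12). Other restricted liver members were antisense to Ica1, an islet autoantigen, at 2.36 and 1.74 FPKM, Scfd1, a vesicle fusion protein, at 1.62 and 1.26, Glyr1, a chromatin protein, at 2.38 and 0.414, and Pdcd6ip, an ESCRT-associated protein, at 8.45 and 5.71. Pdcd6ip was the least tissue-bound of these, with 2.91 and 3.21 FPKM in cortex.

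**Figure D2:**
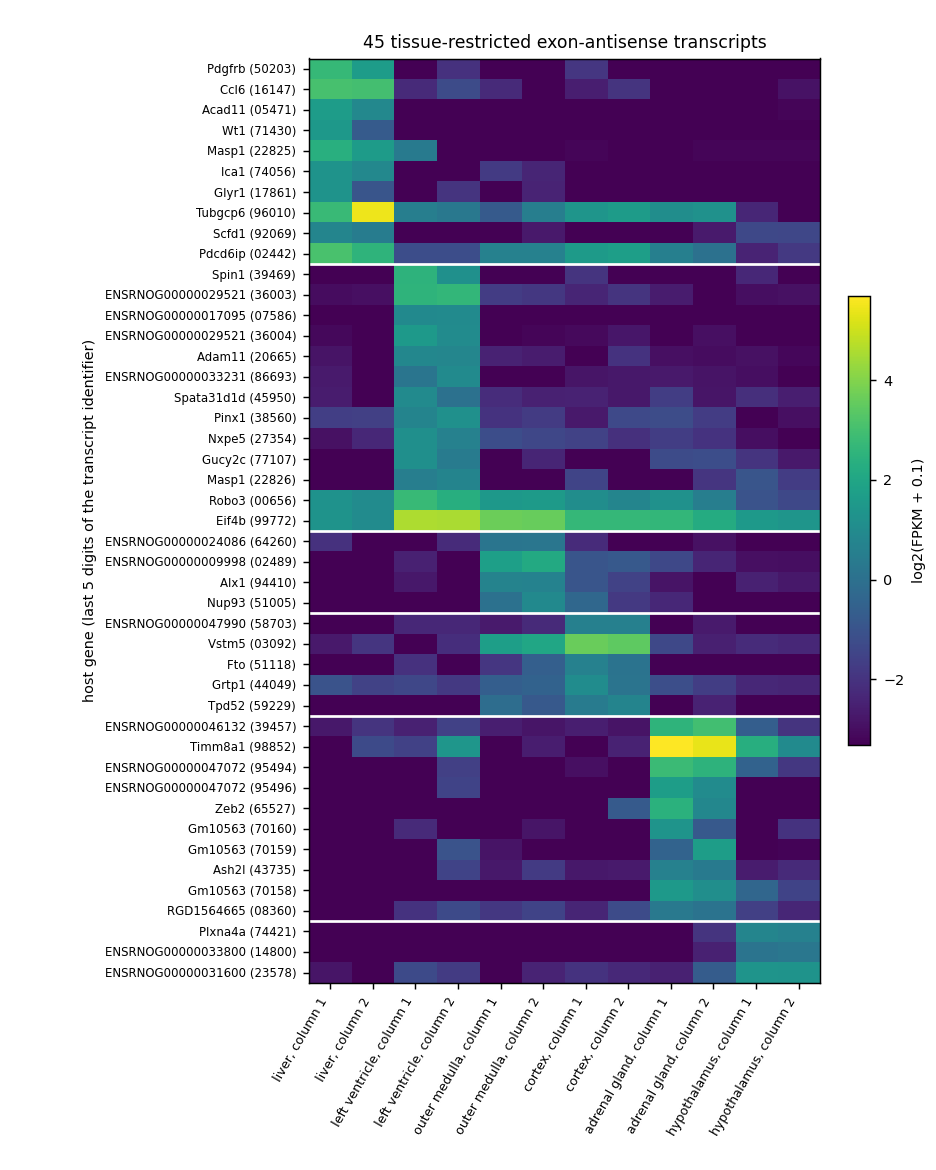
Level of 45 of the 46 restricted members (rows, by host gene) in the 12 columns, as log2(FPKM + 0.1) on the colour scale, ordered by tissue and by ratio to the next tissue, with white lines between tissues. The blocks run down the diagonal from liver to hypothalamus because rows were sorted by the tissue of their call. Rows such as Tubgcp6, Pdcd6ip, Robo3, Eif4b, Vstm5 and Timm8a1 also carry signal in other tissues.

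In left ventricle, 13 members were restricted, and the hosts with a symbol include a translation factor and receptors of axons and intestine. The transcript assigned to Spin1, a reader of histone methylation, was at 5.59 and 2.22 FPKM in left ventricle. The other columns were at 0.159 or less, and 8 of them were at 0. The log2 difference to the next tissue was 4.50 ± 0.57 (SE; limma adjusted p = 0.00032). This transcript is 501 bases long, so a listed 0 in liver column 2 allows up to 2.10 FPKM. As RefSeq places Spin1 on another chromosome, which gene the transcript is antisense to was not tested. Adam11, a catalytically inactive ADAM family protein of neurons, had 3 member transcripts, of which TCONS_00020665 was tested and restricted, at 1.68 and 1.65 FPKM in left ventricle, with no other column above 0.149 (limma adjusted p = 0.00026).

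The host ENSRNOG00000029521 (chr15:24201235-24302722, rn5) had 2 members of 8730 and 4951 bases. The longer was at 5.68 and 6.13 FPKM in left ventricle, with a highest value elsewhere of 0.206 in outer medulla column 1, and the shorter at 2.82 and 1.95, with at most 0.0464 elsewhere. Their log2 differences to the next tissue were 4.37 ± 0.32 and 4.23 ± 0.26 (SE; limma adjusted p = 2e-05 and 9.3e-06). The same host has a transcript that matches the reference, not a member, at 4.67 and 2.78 FPKM in left ventricle and no higher than 0.21 in any other column. Transcripts of both classes were highest in the same tissue. At ENSRNOG00000017095 the member TCONS_00007586 was at 1.85 and 1.87 FPKM in left ventricle and listed at 0 in all other columns (limma adjusted p = 1.2e-06). The other member of that host, TCONS_00007585, was too low to be tested. It was at 1.02 and 0 FPKM in left ventricle and at most 0.300 elsewhere, in adrenal gland column 2.

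Eif4b encodes a translation initiation factor used in all cells, and its antisense transcript (chr7:141476182-141500833, rn5) was the most abundant member in left ventricle. Levels were 23.9 and 23.0 FPKM in left ventricle, 12.6 and 11.9 in outer medulla, 6.28 and 6.26 in cortex, 6.11 and 4.50 in adrenal gland, 2.77 and 2.46 in hypothalamus and 2.40 and 1.95 in liver. No tissues overlapped in their columns, and the log2 difference to outer medulla was 0.93 ± 0.23 (SE; limma adjusted p = 0.011). The call held under each of the 22 alternatives run. Robo3 encodes an axon guidance receptor. Its antisense transcript was at 6.56 and 4.94 FPKM in left ventricle and 2.68 and 2.91 in outer medulla. The call was lost without left ventricle column 1 (limma adjusted p = 0.14) or without either outer medulla column (limma adjusted p = 0.13 and 0.085).

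Among the rest, the member at Gucy2c, the guanylate cyclase receptor of the intestine, averaged 1.70 FPKM in left ventricle, where column 2 was at 1.25, and stayed at or below 0.338 in the rest. Pinx1, an inhibitor of telomerase, had an antisense level of 1.56 and 2.18 FPKM, and Nxpe5, whose promoter is shown above, one of 2.16 and 1.46. The members at Spata31d1d and ENSRNOG00000033231 reached 1.89 and 0.919 FPKM and 1.04 and 1.89 FPKM. In these 5, both left ventricle columns lay above all other columns.

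Masp1 encodes a serine protease of the lectin pathway of complement that is made in liver, and it was the 1 host whose members were restricted to different tissues. TCONS_00022825 (1905 bases) was at 5.03 and 3.01 FPKM in liver, 1.17 and 0 in left ventricle, with no value above 0.00961 in other tissues. TCONS_00022826 (1894 bases) was at 1.35 and 1.58 FPKM in left ventricle, 0.424 and 0.207 in hypothalamus and 0 in both liver columns. Both belong to the same locus (chr11:79916066-80021275, rn5). The liver call was lost without liver column 1 (limma adjusted p = 0.081), and the left ventricle call under 13 of the alternatives, among them each left ventricle column left out (limma adjusted p = 0.095 and 0.12). FPKM of transcripts at 1 locus are estimates that divide shared reads.

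**Figure D3:**
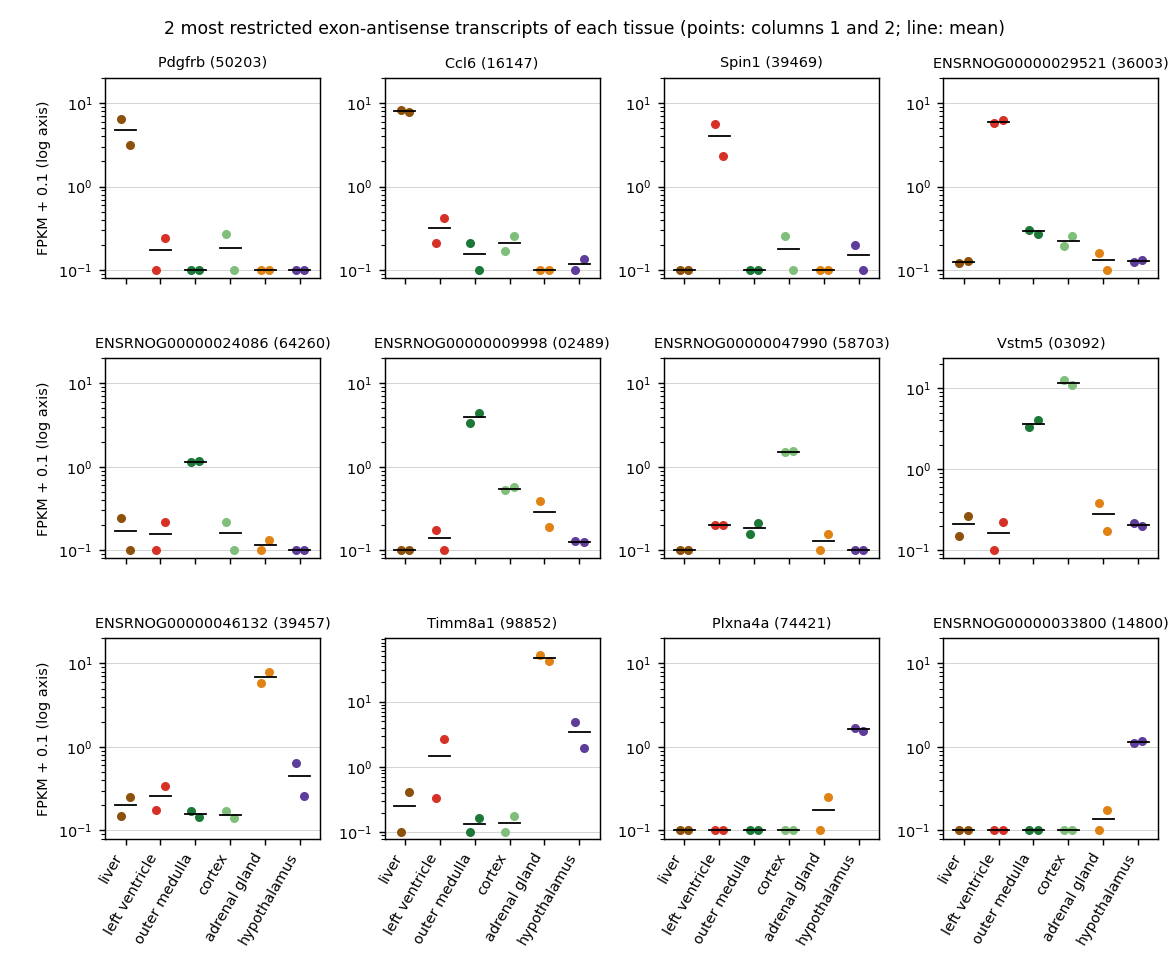
FPKM + 0.1 (log axis) of the 2 members in each tissue that stood furthest above the next one as a ratio, with points for column 1 and column 2 and a line for their mean. Columns of other tissues lie below 1 FPKM except for Vstm5, with 3.17 and 3.92 FPKM in outer medulla, and Timm8a1, with 4.85 and 1.86 in hypothalamus and 2.55 in left ventricle column 2.

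In outer medulla, 4 members were restricted. The most abundant of these, at ENSRNOG00000009998 (chr8:124978438-124991924, rn5), was at 3.27 and 4.37 FPKM in outer medulla, 0.42 and 0.474 in cortex and at most 0.29 in the other tissues. Alx1, a homeobox factor of craniofacial development, had an antisense transcript at 1.52 and 1.5 FPKM in outer medulla and 0.424 and 0.245 in cortex. For the member TCONS_00064260 of ENSRNOG00000024086 the values were 1.03 and 1.06 in outer medulla and 0.118 and 0.000315 in cortex. These 3 were separated from the next tissue by log2 differences of 2.83 ± 0.43, 1.92 ± 0.33 and 2.87 ± 0.55 (SE; limma adjusted p = 0.00085, 0.0016 and 0.0028). A more abundant member of ENSRNOG00000024086 at the same locus, TCONS_00064246, was not restricted (limma adjusted p = 0.061). It was at 4.79 and 2.82 FPKM in outer medulla and 1.23 and 1.86 in cortex. The member at Nup93, a nuclear pore scaffold in which human mutations cause nephrotic syndrome, was at 0.937 and 1.86 FPKM in outer medulla and 0.714 and 0.184 in cortex. Its call lay at the threshold (limma adjusted p = 0.047) and was lost under 13 of 20 alternatives, among them cortex column 2 left out (limma adjusted p = 0.27).

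In cortex, 5 members were restricted, and for 4 of them outer medulla was the next tissue. The member at Vstm5, an immunoglobulin-domain membrane protein known from neurons, was at 12.3 and 10.8 FPKM in cortex, 3.17 and 3.92 in outer medulla and at most 0.284 in other tissues. Its log2 difference to outer medulla was 1.68 ± 0.53 (SE; limma adjusted p = 0.03), and the call was lost without any 1 of the outer medulla, cortex or hypothalamus columns (limma adjusted p between 0.052 and 0.13). The member at ENSRNOG00000047990 was separated most clearly, at 1.41 and 1.43 FPKM in cortex, with no value above 0.11 in other tissues, with a log2 difference of 2.93 ± 0.28 to left ventricle (SE; limma adjusted p = 6.8e-05). Fto, an RNA demethylase linked to body mass in humans, had an antisense transcript at 1.45 and 0.99 FPKM in cortex, against 0.168 and 0.56 in outer medulla. Grtp1, a TBC-domain protein, was represented at 1.97 and 1.01 FPKM in cortex, against 0.539 and 0.614 in outer medulla. Tpd52, a protein of membrane trafficking, was represented at 1.26 and 1.55 FPKM in cortex, against 0.824 and 0.47 in outer medulla. The count of 5 was 1 without either hypothalamus column, 2 without outer medulla column 2 or either cortex column, and 3 without left ventricle column 1 or outer medulla column 1.

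Outer medulla and cortex were also compared directly, over the 604 transcripts of the table that averaged 1 FPKM in either. Of 45 members tested, 4 were higher in outer medulla (background 6.62%) and 4 were lower (background 14.1%). The median log2 difference, outer medulla minus cortex, was -0.151 over these members and -0.153 over the 604. Higher in outer medulla were the members at ENSRNOG00000024086 (TCONS_00064260), by 2.95 ± 0.55 on the log2 scale, at ENSRNOG00000009998, by 2.83 ± 0.43, at Alx1, by 1.92 ± 0.33, and at Eif4b, by 0.96 ± 0.23 (SE; limma adjusted p = 0.0064, 0.0025, 0.0043 and 0.02). The more abundant member of ENSRNOG00000024086, TCONS_00064246, was not called (limma adjusted p = 0.096). The Eif4b difference was lost without any 1 of the 4 columns compared (limma adjusted p between 0.063 and 0.096).

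Lower in outer medulla was the second most abundant member, at ENSRNOG00000041469 (chr1:236219825-236241073, rn5), with 6.26 and 7.55 FPKM in outer medulla and 34.2 and 31.4 in cortex. The log2 difference was -2.24 ± 0.43 (SE; limma adjusted p = 0.0071) and held under all 21 alternatives. In liver it was at 34.2 and 24.5 FPKM, which overlaps cortex, and it was restricted to neither (limma adjusted p = 0.79). At ENSRNOG00000047990, already described in cortex, outer medulla had 0.0579 and 0.11 FPKM and the log2 difference was -3.06 ± 0.28 (SE; limma adjusted p = 0.0002). Stk24, a kinase of the STE20 group, had an antisense transcript at 0 and 0.279 FPKM in outer medulla and 1.05 and 1.74 in cortex (limma adjusted p = 0.016). For Arl13a, an ARF-like GTPase, TCONS_00113783 was listed at 0 in both outer medulla columns and at 1.23 and 0.799 FPKM in cortex (limma adjusted p = 0.033). The other Arl13a member at this locus, TCONS_00113785, was highest in outer medulla, at 0.847 and 1.51 FPKM, with no other column above 0.793. Summed over both members, the mean level was 1.18 FPKM in outer medulla and 1.79 in cortex. The Stk24 call was lost without outer medulla column 1 or cortex column 2 (limma adjusted p = 0.074 and 0.088), and the Arl13a call under 8 of 19 alternatives. Without cortex column 2 the counts were 2 higher and 2 lower. With 0.01 added they were 1 and 2 (9 and 33 over the table), and with 1 added 8 and 14 (83 and 158 over the table).

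Columns were not on 1 scale. Over 508 transcripts present in all columns, rescaling to the same median would shift hypothalamus columns by 0.851 and 0.919 (log2), outer medulla columns by -0.231 and -0.414 and the others by -0.184 to 0.12. After rescaling, 3 members were higher and 7 lower in outer medulla. Over the table the split was 27 higher and 97 lower, against 40 and 85 as deposited.

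**Figure D4:**
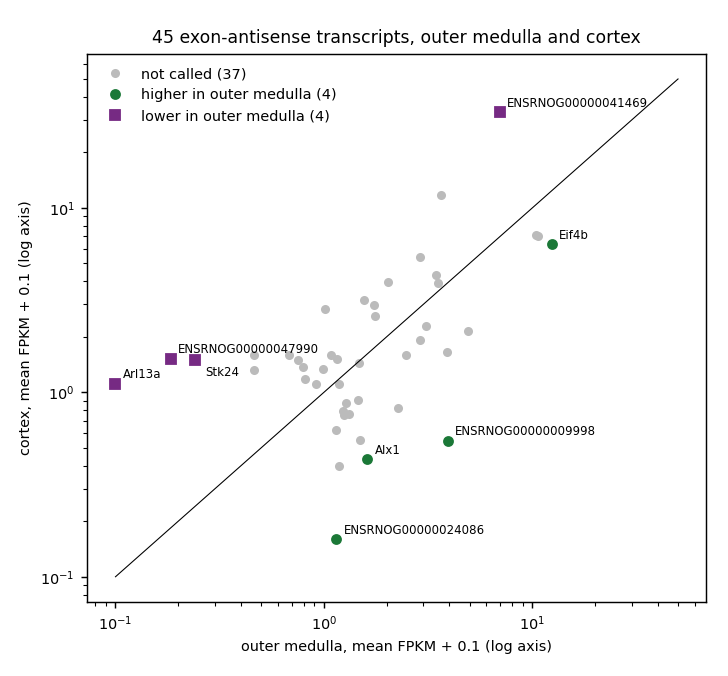
Mean FPKM + 0.1 of the 45 tested members in outer medulla (horizontal, log axis) and cortex (vertical, log axis), with the line of equality. The 4 members called higher in outer medulla (green circles) lie below the line and the 4 called lower (purple squares) above it, with ENSRNOG00000041469 at 6.91 FPKM in outer medulla and 32.8 in cortex.

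Some members were shared by outer medulla and cortex and called in neither. Mxi1, an antagonist of Myc, had 3 antisense transcripts at 1 locus (chr1:281444462-281503831, rn5), all with their highest mean in cortex. TCONS_00013752 was at 3.85 and 2.88 FPKM in outer medulla and 4.64 and 3.82 in cortex, with no value above 0.573 in other tissues. Summed over the 3, the mean level was 5.71 FPKM in outer medulla, 7.99 in cortex and at most 0.515 in other tissues. ENSRNOG00000018121 (chr2:76756770-76772365, rn5) showed the same pair of tissues, with TCONS_00058903 at 8.52 and 12 FPKM in outer medulla, 7.74 and 6.26 in cortex and 2.17 and 1.90 in hypothalamus. Irx3, an Iroquois homeobox factor that patterns the nephron, had an antisense transcript at 0.751 and 0.878 FPKM in outer medulla and 0.938 and 1.09 in cortex, with no value above 0.197 in other tissues. In the direct comparison of the tissues, none of these passed the test (limma adjusted p between 0.28 and 0.88).

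In adrenal gland, 10 members were restricted. The highest of all members was the transcript assigned to Timm8a1, a chaperone of mitochondrial import, at 51.4 and 41.6 FPKM in adrenal gland, 4.85 and 1.86 in hypothalamus, 0.231 and 2.55 in left ventricle and at most 0.306 in the other tissues. The log2 difference to hypothalamus was 3.89 ± 1.03 (SE; limma adjusted p = 0.015), and the call was lost without adrenal gland column 1, adrenal gland column 2 or hypothalamus column 2 (limma adjusted p = 0.069, 0.054 and 0.094). Its locus (chr7:115976559-116157978, rn5) has the same listed interval as a transcript that overlaps Cyp11b3, which is not a member and was at 60.5 and 44.4 FPKM in adrenal gland. As RefSeq places Timm8a1 on another chromosome, which gene this transcript is antisense to was not tested.

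On the same stretch of chromosome 7, 13586 bases further, lies ENSRNOG00000047072 with 2 restricted members. TCONS_00095494 was at 7.03 and 5.62 FPKM in adrenal gland and 0.618 and 0.175 in hypothalamus, and TCONS_00095496 at 3.09 and 1.96 in adrenal gland, with no other column above 0.253 (limma adjusted p = 0.0011 and 0.00049). A further 64986 bases on, the member at Ly6i was at 3.47 and 2.94 FPKM in adrenal gland, 2.98 and 2.77 in cortex, while outer medulla had 1.54 and 1.72. Adrenal gland and cortex columns overlapped for Ly6i, and it was not restricted (limma adjusted p = 0.84). Among members, 4 pairs of loci lay within 500 kb of each other, and 3 of these pairs shared the tissue with the highest mean. These 3 include 2 loci of the same host, and the pair of ENSRNOG00000047072 and Ly6i. The share over all neighbouring loci of the table was not computed.

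**Figure D5:**
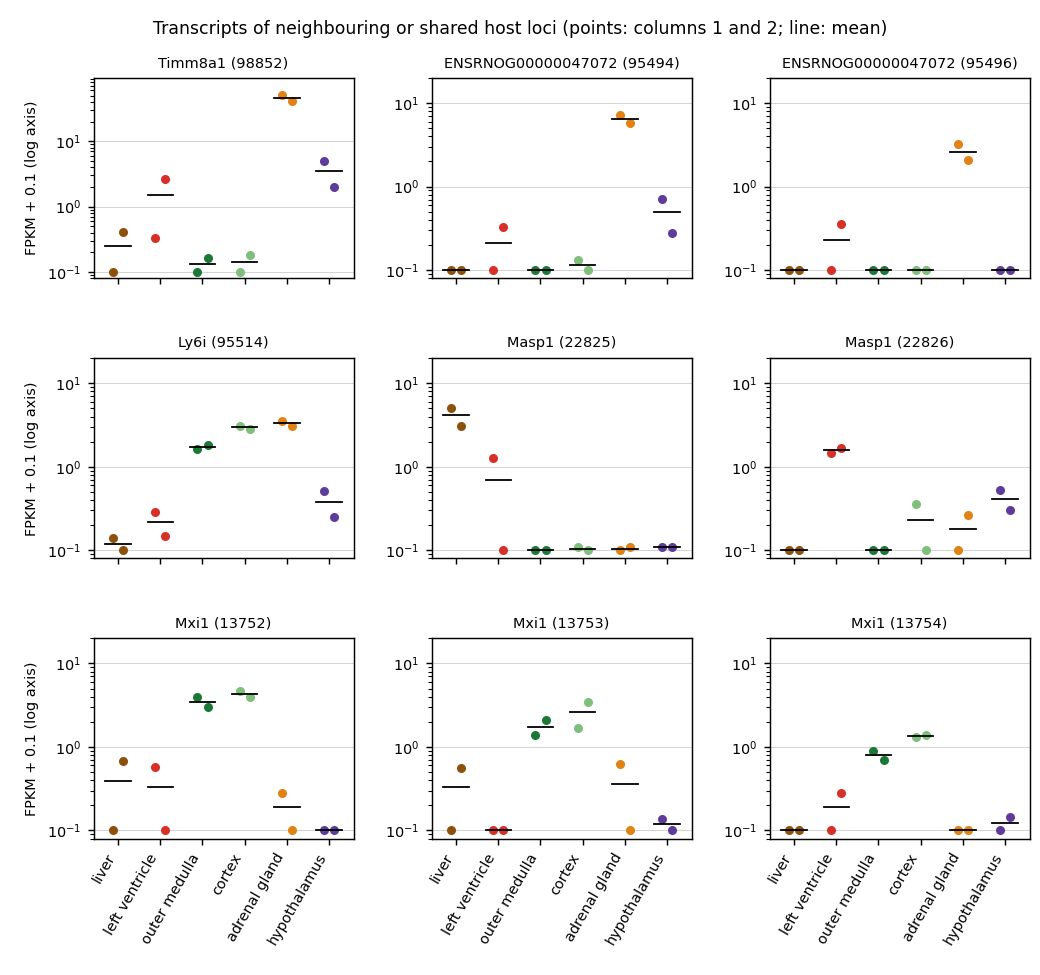
FPKM + 0.1 (log axis) by tissue for the members on chromosome 7 near Timm8a1 and for the members of Masp1 and Mxi1, with points for column 1 and column 2 and a line for their mean. Timm8a1 and both transcripts of ENSRNOG00000047072 are highest in adrenal gland, the Masp1 transcripts in liver and in left ventricle, and the 3 Mxi1 transcripts in cortex and outer medulla.

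The member at ENSRNOG00000046132 (chr16:27606-65842, rn5) was at 5.67 and 7.77 FPKM in adrenal gland, 0.546 and 0.157 in hypothalamus, with no value above 0.236 in other tissues. Its log2 difference to hypothalamus was 4.05 ± 0.53 (SE; limma adjusted p = 0.00039), and the call held under all 22 alternatives. Zeb2, a repressor known from epithelial-mesenchymal transition and the neural crest, had an antisense transcript at 5.33 and 1.69 FPKM in adrenal gland, 0 and 0.488 in cortex and 0 in all other columns (limma adjusted p = 0.0048). That transcript is 272 bases long, and a listed 0 allows up to 5.72 FPKM in liver column 2 and up to 2.22 in left ventricle column 2, so its absence from those columns is not shown at this depth. The related gene Zeb1, named after its values were seen, had 3 members, and the tested one, TCONS_00045111, was at 1.41 and 1.06 FPKM in cortex, 0.627 and 1.15 in outer medulla, with no value above 0.103 in other tissues.

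All 3 members of Gm10563, at 1 locus on chromosome 3, were restricted to adrenal gland. Their levels there were 2.83 and 2.10 FPKM for TCONS_00070158, 0.631 and 3.11 for TCONS_00070159 and 2.42 and 0.467 for TCONS_00070160. For TCONS_00070159 adrenal gland column 2 was the higher, and for TCONS_00070160 column 1. In the same order, limma adjusted p was 0.0014, 0.023 and 0.011. With 0.01 added, the calls of TCONS_00070159 and TCONS_00070160 were lost (limma adjusted p = 0.081 and 0.072). The 3 members share a locus and are not independent. Ash2l, a subunit of histone methyltransferase complexes, was covered at 1.46 and 1.18 FPKM in adrenal gland, with no other column above 0.254. RGD1564665 had a member at 1.14 and 0.972 FPKM in adrenal gland, with no other column above 0.312. The same name has 6 transcripts of other classes, of which 3 were restricted to adrenal gland too, one at 19.4 and 18.1 FPKM.

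In hypothalamus, 3 members were restricted. The one antisense to Plxna4a, a semaphorin receptor of axon guidance, was at 1.6 and 1.44 FPKM in hypothalamus, 0 and 0.153 in adrenal gland and 0 in all other columns. That transcript is 512 bases long, and a listed 0 allows up to 2.04 FPKM in liver column 2 and 0.777 and 0.792 in left ventricle. Its absence from liver column 2 is therefore not shown at this depth. For ENSRNOG00000033800 the values were 1.01 and 1.09 FPKM in hypothalamus, 0 and 0.0759 in adrenal gland and 0 elsewhere. ENSRNOG00000031600 had a member at 2.43 and 2.39 FPKM in hypothalamus, 0.0774 and 0.513 in adrenal gland, with no value above 0.305 in other tissues. Adjusted p-values were 0.00017, 3.45e-05 and 0.0042 in that order (limma). In each of these, adrenal gland column 2 was above adrenal gland column 1, at a median of 10.1% of the hypothalamus level and a range of 7.22 to 21.3%. Conversely, the 10 adrenal gland members were at a median of 6.43% of their adrenal gland level in hypothalamus column 1 and 3.39% in column 2. The part of these values in the results was not tested. Without adrenal gland column 2 and hypothalamus column 1, 36 of the 46 restricted members were still called in the same tissue.

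Few members were even across tissues. Rsl1d1, a nucleolar protein with a ribosomal L1 domain, had an antisense transcript of low tau, 0.212, with 3.57 and 2.97 FPKM in left ventricle. Adrenal gland had 3.17 and 2.69 FPKM, outer medulla 2.23 and 2.50, hypothalamus 2.23 and 1.98, liver 2.25 and 1.72, and cortex 1.28 and 1.70. Left ventricle and adrenal gland columns overlapped, as did liver with outer medulla and with hypothalamus, while both cortex columns lay below all others. ENSRNOG00000047364 had a member, TCONS_00008923, of tau 0.231, at 3.17 to 7.10 FPKM in all columns except liver, where column 1 was at 7.36 and column 2 at 0.0045. Its other member, TCONS_00008922, was at 0 and 5.51 FPKM in liver, so each liver column had its high value at a different transcript of the host. Eif4b, with a tau of 0.446, was the only other member at an FPKM of 1 or more in all 6 tissues.

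By host role, members were spread thinly over the lists, which were built from symbol prefixes. Transporters and channels had 7 transcripts of 3 hosts, of which 2 were tested and 0 restricted. The highest was Slc16a11, a monocarboxylate transporter with 5 transcripts, where TCONS_00019392 was at 1.56 and 1.44 FPKM in cortex (limma adjusted p = 0.058). The other tested was the kidney organic anion transporter Slc22a13, at 0.653 and 0.776 in outer medulla and 0.83 and 1.35 in cortex. Signalling enzymes had 5 transcripts, 2 tested and 0 restricted, with the vesicle GTPase Rab26 at 2.35 and 0.947 FPKM in adrenal gland and the phosphatase subunit Ppp2r5c at 0.874 and 1.83 in outer medulla. The prefixes of the RNA and chromatin list matched 2 hosts, Eif4b and Nup93, both restricted. They left out other chromatin proteins among the hosts such as Glyr1, Ash2l and Ctcf. Contractile and cytoskeletal proteins had 2, both tested, of which Tubgcp6 was restricted and Casq1, the calsequestrin of skeletal muscle, was not, at 2.87 and 0.96 FPKM in adrenal gland and 0.0231 and 0 in left ventricle. The prefixes of the zinc finger list matched no host, although Zeb1, Zeb2, Ctcf, Sp2 and Wt1 among the hosts are zinc finger proteins under other names. The synaptic list had 1, Syt11, which was not tested. Hosts with an identifier alone had 43 transcripts, of which 29 were tested and 12 restricted, and other hosts had 110, of which 55 were tested and 29 restricted.

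Of the 125 hosts, 95 had 1 member and 30 had 2 or more. The host with the most, ENSRNOG00000021723, had 8 transcripts, none of which reached an FPKM of 1, with a summed mean of 1.84 FPKM in liver and 0.433 to 1.04 in the other tissues. Members of a host are not independent, since they share a locus and reads. At 6 hosts the table also held transcripts of another class, and 40 members lay at loci with transcripts that are not members. Short members at Glipr1l2 (220 bases) and ENSRNOG00000047767 (301 bases), were at 9.41 and 7.88 FPKM in liver column 1 and 0 in all other columns. In liver column 2 a listed 0 allows 9.39 and 4.69 FPKM for these lengths.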

How the data were processed

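FPKM values and transcript lengths in bases were used as the authors deposited them, in 1 table of 2458 rows, of which 3 have no values. Per the labels' protocols, TRIzol RNA went into TruSeq Stranded RNA LT libraries. The submitters' processing notes name bcl2fastq 2.15.0 and the rn5 build. Class codes follow Cufflinks tracking columns, per the file headers. The sources used here do not name the aligner, FPKM program, annotation or strand setting. Column codes were matched to tissue labels by their letters, and hypothalamus by elimination.

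limma 3.58.1 (R 4.3.3, trend on the mean) was fitted to log2(FPKM + 0.1) over the whole table with tissue as the only term, and Benjamini-Hochberg adjustment ran over all transcripts tested at a mean FPKM of 1 or more. The spread is pooled over 6 tissues with 2 columns each. The procedure was tested on simulated data. Tables and figures were made with Python 3.11.15, pandas 2.3.3, NumPy 2.4.6 and matplotlib 3.10.9. Depth was read from steps in low values, where 70.3 to 82.87% came out whole within 0.15 fragments at an assumed fragment of 140 bases.

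Transcripts named by rule were those with the largest ratio or level per tissue, the most even ones, the called outer medulla and cortex differences, those of the host role lists, and hosts with several transcripts or other classes. The other restricted members, and those said to be, were named after their values were seen. Members, lists and tests were chosen with earlier results of these data known. Alternatives covered pseudocounts, minimum levels, rescaling, a replicate block, tissues and columns left out, and sums per locus. The values of 1 restricted liver member are not reported here.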

Additional observations from a re-analysis of the deposited data

How the results depend on the processing

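No called difference reversed its direction under an alternative. Among named members not called restricted, 8 changed which tissue was higher under at least 1 alternative, with log2 differences down to -0.859 (Arl13a). Of the 46 restricted members, 19 were called under every alternative run, 11 were lost only at a pseudocount of 0.01, and 16 were lost under 2 or more. At a pseudocount of 0.01 the count of restricted members was 19 of 95, against 308 of 1269 over the table, with 5 in liver, 7 in left ventricle, 0 in outer medulla, 1 in cortex and 4 in adrenal gland, and 1 member was higher and 2 lower in outer medulla than in cortex (9 and 33 over the table). At a pseudocount of 1, outer medulla had 7 and cortex 9, and 8 members were higher and 14 lower in outer medulla (83 and 158 over the table). Sums per locus gave 7 in outer medulla, and a 5-fold rule of size gave 2 in outer medulla and 1 in cortex. Cortex had 2 without the hypothalamus columns and 3 when adrenal gland column 2 and hypothalamus column 1 were dropped. Hypothalamus had 5 at an FPKM minimum of 0.5 and 6 with no minimum or after rescaling. At that minimum of 0.5, 7 members were higher and 7 lower in outer medulla (69 and 110 over the table). After rescaling 7 were lower (97 over the table). Median tau was 0.902 on linear FPKM and 0.887 with outer medulla and cortex averaged. The causes were not tested.

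Leaving out 1 column at a time gave 37 to 46 restricted members, with 8 to 14 in liver, 10 to 14 in left ventricle, 3 to 5 in outer medulla, 1 to 4 in cortex, 7 to 10 in adrenal gland and 3 in hypothalamus. It gave 2 to 5 higher and 2 to 6 lower in outer medulla, 136 to 143 detected, and a median tau of 0.833 to 0.853. A lone column left in a tissue was assumed to vary like the other tissues. With the replicate block 43 of 95 members were restricted, all among the 46, against 578 of 1269 transcripts over the table. In that run 4 members were higher and 4 lower in outer medulla (38 and 82 over the table). Deviations of columns of the same number correlated at -0.071 to 0.128 over 15 pairs of tissues, and 1 pair was above 0.1. These deviations also hold counting error, so weak correlations cannot show whether columns of the same number share a rat or batch. The labels do not say. Depth limits short transcripts most, in liver column 2.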
